A study of Sus scrofa with 21 samples.

Results

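The late infarct core was compared at 6 weeks and 4 weeks after a surgically induced myocardial infarction, in 3 infarct core (IC) arrays at 6 weeks (pigs 2, 3 and 5) and 3 IC arrays at 4 weeks (pigs 18, 20 and 22). These are 6 of the 21 arrays of a pig study, in which female Landrace x Large White animals gave IC tissue and remote myocardium (RM) at 6, 4 and 1 weeks, and control myocardium (CM) came from 3 pigs without infarction, sham-operated in the labels. A coronary artery was ligated in the infarct pigs. The labels also give the 2 late stages as 45 and 30 days. Each pig was sampled once, so a difference between the stages is a difference between 3 pigs and 3 other pigs, and no treatment or genetic change separates them. The tissue of each region was 1 piece of bulk myocardium a pig, and in such samples fewer cells of a type and less RNA per cell cannot be told apart. Values are log2 expression by RMA, a method that normalizes arrays and summarizes probes into probe sets; a difference of 1 is a 2-fold level. Of 24123 probe sets, the 12180 above 3 in at least 10 of the 21 arrays were tested. Values of 3 arrays are given in the order of pigs 2, 3 and 5 at 6 weeks and of pigs 18, 20 and 22 at 4 weeks.

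After a coronary artery is closed, the muscle cells downstream die and the core is cleared by phagocytes, filled by fibroblasts and turned into a collagen scar. Heart muscle cells are packed with mitochondria and live mainly on fatty acids, so transcripts of the respiratory chain, the citric acid cycle and the contractile apparatus mark the muscle that is left in or beside a scar. Interferon-induced genes, antigen presentation and complement are parts of the immune response that macrophages and other cells of a healing infarct carry.

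The tissue bore out its label in both stages. The 8 tested fibrillar collagen genes averaged 8.16 to 8.42 in the IC arrays at 6 weeks and 8.28 to 8.48 at 4 weeks, while their RM averages were 5.59 to 6.10 and 6.17 to 6.39. The sarcomere genes ran the other way, with averages of 10.17 to 10.82 in IC at 6 weeks and 9.47 to 10.33 at 4 weeks, against RM averages of 10.93 to 11.07 and 11.04 to 11.13. Muscle transcripts were therefore present in all 6 core samples, and their list average lay below that of the remote wall. Single genes could differ from the average: ACTC1 had a mean of 11.61 in IC and 11.56 in RM at 6 weeks.

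At 6 weeks the core held more transcript of the energy metabolism and contraction of heart muscle than at 4 weeks, and less of interferon signalling and antigen presentation. In limma, 473 probe sets (3.88% of those tested) were differentially expressed (DEPS, adjusted p under 0.05), 254 higher (2.09%) and 219 lower (1.8%) at 6 weeks. The change was modest for most: 70 of the rises and 87 of the falls reached an absolute log2 FC of 1, and the median log2 FC was 0.85 among the rises and -0.91 among the falls. The arrays of the stages did not overlap in 247 of the rises and 214 of the falls, which were called on the same arrays; over all probe sets tested they did not overlap in 2326 (19.1%). Over all probe sets the median log2 FC was -0.011. Of 18 tested macrophage genes 1 was called lower, and of 13 fibroblast genes 2, where 1.24% of all named genes were. The macrophage count was 0 in some fits without a single array. So was that of antigen presentation, where 4 of 22 genes were called lower. For interferon-induced genes, where 3 of 21 were called lower, the count went down to 1 in such fits. In RM the medians of the antigen presentation and interferon-induced lists were also below 0, at -0.33 and -0.57. The 3' minus 5' difference of spiked control transcripts, described further on, also separated the stages completely, at 3.58 to 5.16 in all 6 arrays at 6 weeks, against 1.41 to 2.12 in all 6 at 4 weeks (IC and RM). With that difference as a covariate 0 probe sets were called, and the medians of the fatty acid oxidation and macrophage lists were 0.04 and 0.08.

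The number of DEPS rested on single animals. It was 154 without pig 2, 260 without pig 3 and 798 without pig 5, and 207 without pig 22, against 420 without pig 18 and 494 without pig 20. A fit of the 6 IC arrays alone, which has fewer samples to estimate the spread from, called 20 probe sets. The balance of directions depended on the scaling: 53.7% of the DEPS were higher at 6 weeks, 64.3% (329 higher, 183 lower) when arrays were centred on their median and 66.6% (223 higher, 112 lower) when they were centred on ribosomal protein genes.

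The probe sets that rose had a median level of 8.08 in CM; over the IC stages it was 6.66 (1 week), 6.09 (4 weeks) and 7.10 (6 weeks). Of the 254, 242 had a 4-week mean below that of CM, and 218 still had a 6-week mean below it. The probe sets that fell showed medians of 4.17, 4.58, 5.29 and 4.25 in the same order. Since these probe sets were chosen on the 4-week and 6-week arrays, the low or high point at 4 weeks is a description.

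**Figure D1:**
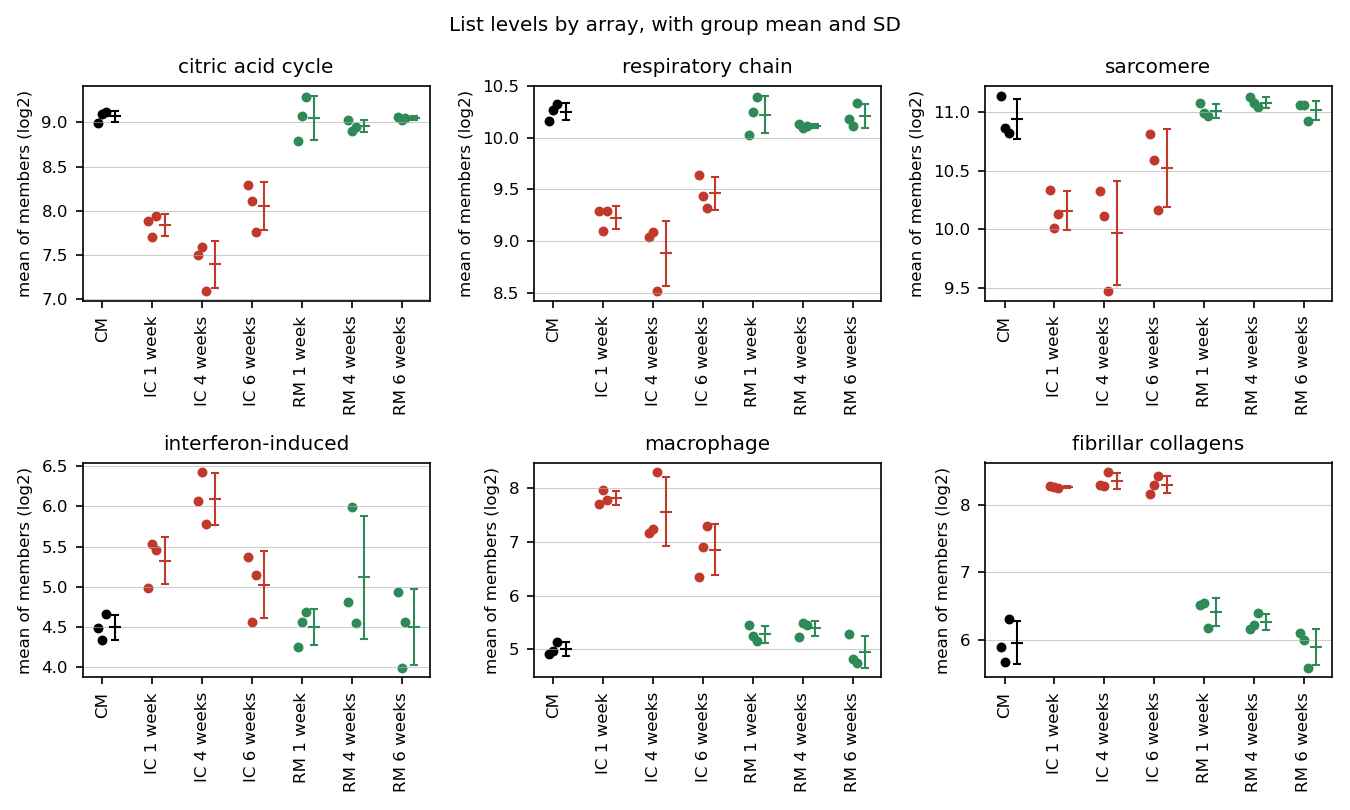
Mean log2 level of the tested members of 6 gene lists, in each of the 21 arrays (points) with the group mean and SD (bar), ordered as CM, then the IC stages, then the RM stages. The citric acid cycle, respiratory chain and sarcomere lists lie below all 3 CM arrays in all 9 IC arrays, and the citric acid cycle list spans 7.76 to 8.29 in IC at 6 weeks and 7.09 to 7.59 at 4 weeks.

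The citric acid cycle burns acetyl groups in the mitochondrial matrix. All 22 of its tested genes were higher at 6 weeks, 10 rose and 0 fell, with a median log2 FC of 0.67. Over the 5818 named genes with 1 probe set each, 4.47% were called, 3.23% higher and 1.24% lower, and the median log2 FC was -0.013. The mean level of the list was 8.29, 8.12 and 7.76 in the arrays at 6 weeks, against 7.50, 7.59 and 7.09 at 4 weeks, so that the groups did not overlap and pig 22 was lowest. Leaving out single arrays gave 3 rises without pig 2, 4 without pig 22, 5 without pig 3 and 17 without pig 5.

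MDH2, the mitochondrial malate dehydrogenase, had 9.84, 9.63 and 9.40 at 6 weeks, against 8.86, 8.73 and 8.22 at 4 weeks (log2 FC 1.02 ± 0.16 SE, limma adjusted p = 0.00213). PDHA1, a catalytic subunit of the pyruvate dehydrogenase complex that feeds the cycle, had 7.32, 7.26 and 6.68 at 6 weeks and 6.41, 6.25 and 5.65 at 4 weeks (0.98 ± 0.19, adjusted p = 0.00787). PDHX, which anchors another subunit of that complex, had 8.07, 7.49 and 7.32, against 6.74, 6.90 and 6.20 (1.01 ± 0.20, adjusted p = 0.00961). In each of these genes the lowest 6-week array lay above the highest 4-week array. SUCLA2, a subunit of succinyl-CoA synthetase, rose by 0.93, IDH3A, a subunit of isocitrate dehydrogenase, by 0.90, and CS, the citrate synthase that opens the cycle, by 0.68. MDH2 and PDHA1 kept their calls without any single array, whereas PDHX lost it without pig 2 or 22 and SUCLA2 without pig 2, 3, 18 or 22.

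SDHA, the flavoprotein of succinate dehydrogenase, was measured by a pair of probe sets that disagreed. The brighter one rose (9.33, 9.17 and 8.70 at 6 weeks, against 8.46, 8.51 and 8.09 at 4 weeks, log2 FC 0.72, adjusted p = 0.0182). The other had 4.50, 4.80 and 4.13 at 6 weeks, against 5.83, 5.63 and 5.30 at 4 weeks (-1.11, adjusted p = 0.00961), and it fell in RM too (-1.62, adjusted p = 0.00108). Only the brighter one is counted in the lists.

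The respiratory chain, which turns the hydrogen freed by these reactions into ATP, moved with the cycle. Of its 47 tested genes, 46 were higher at 6 weeks, 19 rose and 0 fell, with a median log2 FC of 0.57. In 38 of the 47 the arrays of the stages did not overlap, where 9.87% of all named genes had every 6-week array above and 10.3% every 6-week array below the 4-week arrays. The list averaged 9.63, 9.43 and 9.32 at 6 weeks, against 9.04, 9.08 and 8.51 at 4 weeks. It gave 6 rises without pig 2, 7 without pig 3, 7 without pig 22 and 27 without pig 5. Scaling changed the count as well, to 26 with arrays centred on their median and to 10 with centring on ribosomal protein genes.

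The rises were spread over the complexes. Of 24 tested genes of complex I, which takes electrons from NADH, 9 rose (median log2 FC 0.65), and of the 12 of complex V, the ATP synthase, 5 rose (0.51). Of the 9 of complex IV, cytochrome c oxidase, 4 rose (0.50), and of the 4 of complex II, the succinate dehydrogenase counted with the cycle, 2 rose (0.52). UQCRB, the 1 tested gene of complex III, rose by 0.78.

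NDUFS7, an iron-sulphur subunit of complex I, had 9.17, 9.18 and 8.89 at 6 weeks, against 8.21, 8.23 and 7.87 at 4 weeks (log2 FC 0.98 ± 0.15, adjusted p = 0.0018). COX7A1, the heart and muscle form of a complex IV subunit, had 10.80, 10.47 and 10.35, against 9.83, 9.77 and 9.38 (0.88 ± 0.14, adjusted p = 0.0018). Both stayed DEPS without any single array. CYCS, the electron carrier cytochrome c, had the largest difference in the list, 1.23, with 8.92, 8.43 and 8.62 at 6 weeks and 8.31, 7.83 and 6.14 at 4 weeks, and it did not pass (adjusted p = 0.0817); pig 22 alone was far below the rest.

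Fatty acid oxidation, the main fuel pathway of the working heart, gained 6 rises and 0 falls among 22 tested genes, with a median log2 FC of 0.56. Its mean level was 8.11, 7.93 and 7.29 at 6 weeks and 7.42, 7.48 and 7.09 at 4 weeks, so pig 5 lay within the 4-week range. ACADVL, which takes the first step on very long chains, had 8.37, 8.46 and 7.64, against 7.66, 7.24 and 6.96 (0.87 ± 0.24, adjusted p = 0.0479). ACAA2, the last enzyme of a turn of the spiral, had 8.68, 8.60 and 8.03, against 7.60, 7.80 and 7.31 (0.86 ± 0.17, adjusted p = 0.00985). ECI1, the isomerase for unsaturated chains, had 8.56, 8.63 and 8.36, against 7.83, 7.82 and 7.48 (0.81 ± 0.14, adjusted p = 0.00333) and kept its call without any single array. The count was 2 without pig 2, 3 without pig 22 and 10 without pig 5. Of 13 tested genes of fatty acid uptake and storage, 1 rose, the transporter SLC27A1 (0.70), and the list's median was -0.01.

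Of 19 tested genes of glycolysis, glucose uptake and glycogen 3 rose and 0 fell, and the median log2 FC was 0.26. PFKM, the muscle phosphofructokinase that sets the pace of glycolysis, had 9.11, 8.81 and 8.85 at 6 weeks, against 7.57, 7.35 and 6.80 at 4 weeks (1.68 ± 0.24, adjusted p = 0.000992). PGAM2, the muscle phosphoglycerate mutase, had 7.80, 7.82 and 7.24, against 6.58, 6.12 and 6.05 (1.36 ± 0.19, adjusted p = 0.00092). PYGM, which splits glucose units off glycogen in muscle, had 7.61, 7.68 and 7.45, against 6.89, 6.75 and 5.69 (1.14 ± 0.29, adjusted p = 0.0359). The first and the second of these stayed DEPS without any single array, whereas PYGM was lost without pig 2, 3 or 22.

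Several of the largest named rises belonged to energy transfer and its control. CKMT2, the creatine kinase of heart and muscle mitochondria, had 10.50, 10.08 and 10.34 at 6 weeks, against 9.37, 9.23 and 7.99 at 4 weeks (1.44 ± 0.27, adjusted p = 0.00636). PRKAA2, a catalytic subunit of the energy sensor AMP-activated kinase, had 7.97, 7.96 and 7.82, against 6.97, 6.30 and 6.11 (1.46 ± 0.20, adjusted p = 0.000743). It was the 1 rise among 9 tested metabolic coactivators and regulators in the probe sets chosen for the lists. PPARGC1A, the coactivator that drives the making of mitochondria, spread widely, with 7.68, 6.12 and 5.41 at 6 weeks and 5.02, 4.80 and 3.80 at 4 weeks (1.86 ± 0.48, adjusted p = 0.0359). A second probe set of PPARGC1A, used in the list because it is brighter over all arrays, gave 1.53 and did not pass (adjusted p = 0.0768), and the call of the first was lost without pig 2, 3 or 22.

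PPIF, the cyclophilin that regulates the permeability pore of mitochondria, had 6.07, 6.31 and 5.80 at 6 weeks and 4.93, 4.70 and 4.53 at 4 weeks (1.34 ± 0.21, adjusted p = 0.0018). SOD2, the superoxide dismutase of mitochondria, had 9.26, 9.57 and 9.26, against 8.42, 8.81 and 8.10 (0.92 ± 0.18, adjusted p = 0.00873), and was the 1 called gene of 21 in the oxidative stress list. AIFM1, a flavoprotein of the mitochondrial space between membranes that also has a role in cell death, rose by 0.91. These genes too had no overlap between the stages.

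**Figure D2:**
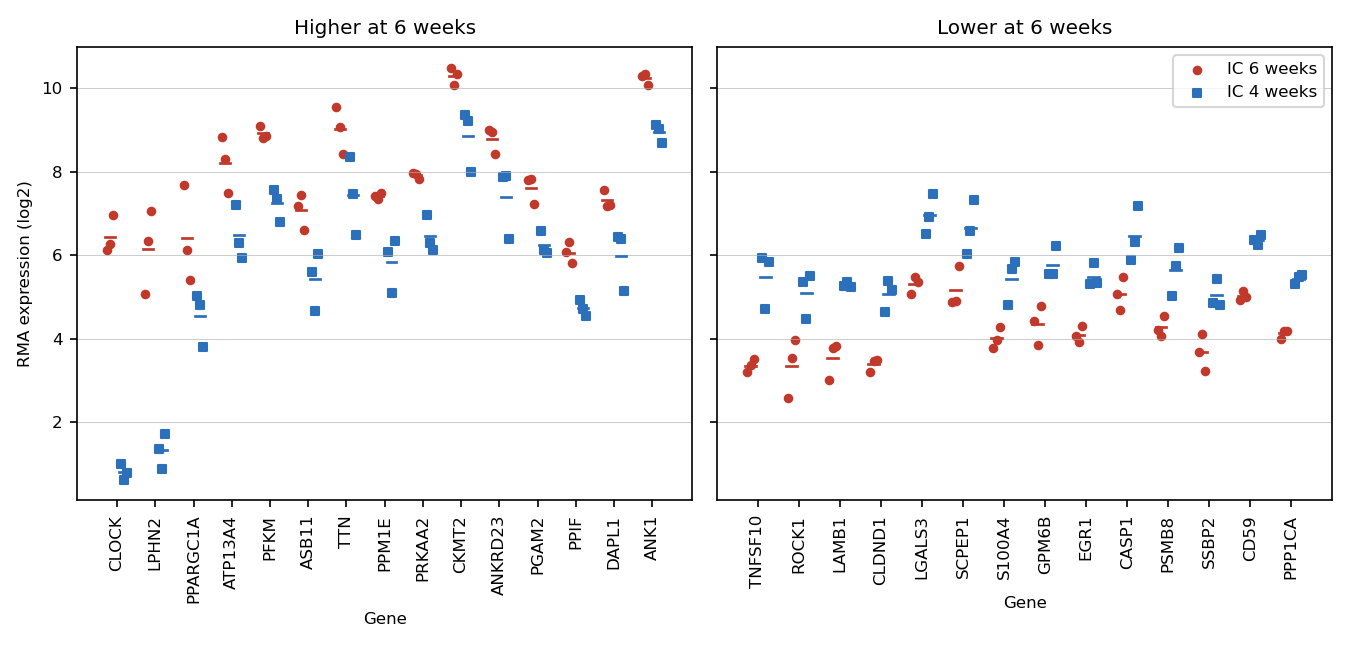
Log2 expression of named DEPS whose arrays did not overlap, the 15 that rose most and 14 of the 15 that fell most, with each IC array at 6 weeks (circles) beside each at 4 weeks (squares) and the group mean as a bar. CLOCK and LPHN2 stand apart at 4 weeks, at 0.62 to 1.71, and the other genes differ by 1.29 to 2.13 in size on the log2 scale.

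The contractile apparatus followed the same direction. All 21 tested sarcomere and muscle structure genes were higher at 6 weeks, 7 rose and 0 fell, and the median log2 FC was 0.52. The list averaged 10.82, 10.59 and 10.17 at 6 weeks, against 10.33, 10.12 and 9.47 at 4 weeks, so pig 5 at 6 weeks lay below pig 18 at 4 weeks. Its count was 1 without pig 2, 3 without pig 22, 4 without pig 3, 9 without pig 5 and 3 with cyclic loess.

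TTN, the giant spring of the sarcomere, passed in all 3 of its probe sets, with log2 FC 1.59, 1.51 and 0.85. The probe set with the largest change had 9.56, 9.07 and 8.43 at 6 weeks, against 8.36, 7.47 and 6.48 at 4 weeks (SE 0.35, adjusted p = 0.0155). LDB3, which holds the Z disc together, had 9.33, 9.26 and 8.70, against 8.32, 8.03 and 7.59 (1.12 ± 0.18, adjusted p = 0.00248). MYL3, the essential light chain of ventricular myosin, had 11.72, 11.44 and 11.30, against 10.91, 10.77 and 10.12 (0.89 ± 0.17, adjusted p = 0.00873). Of these LDB3 kept its call without any single array, MYL3 lost it without pig 2, and the TTN probe set with 1.59 lost it without pig 2, 3 or 22. MYOM2, an M-band protein, rose by 1.14, ACTN2, the actinin of the Z disc, by 0.80, CKM, the muscle creatine kinase, by 0.59, and TNNI3, cardiac troponin I, by 0.54. MYH7, the main myosin heavy chain of the ventricle, had a log2 FC of 0.32 and did not pass (adjusted p = 0.264).

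Genes that move calcium and carry currents in heart muscle rose in 5 of 15 cases, with 0 falls and a median log2 FC of 0.69. ATP2A2, the pump that returns calcium to the sarcoplasmic reticulum, had 11.30, 10.99 and 11.09 at 6 weeks, against 10.46, 10.11 and 10.34 at 4 weeks (0.82 ± 0.16, adjusted p = 0.00961). Its inhibitor PLN had 11.24, 10.76 and 10.90, against 10.38, 10.32 and 10.30 (0.63 ± 0.16, adjusted p = 0.0309). KCNIP2, a subunit of the channel for the transient outward current, had 8.56, 8.16 and 7.39, against 6.98, 7.40 and 6.18 (1.18 ± 0.30, adjusted p = 0.0359), with pig 5 touching the 4-week range. The rapid rectifier channel KCNH2 rose by 1.03 and the calcium channel subunit CACNB2 by 0.79. The count of 5 became 0 without pig 2, 1 without pig 22, 2 without pig 3, 3 without pig 18 and 8 without pig 5.

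The 15 largest rises held further genes outside these lists. ANK1, an ankyrin that ties membranes to the cytoskeleton and in muscle to the sarcoplasmic reticulum, had 10.29, 10.35 and 10.08 at 6 weeks, against 9.12, 9.03 and 8.70 at 4 weeks (1.29 ± 0.15, adjusted p = 0.000115). ANKRD23, an ankyrin repeat protein of the titin spring region, had 8.99, 8.96 and 8.42, against 7.89, 7.89 and 6.38 (1.40, adjusted p = 0.00987). ASB11, an adaptor of a ubiquitin ligase expressed in muscle, had 7.18, 7.45 and 6.61, against 5.61, 4.66 and 6.02 (1.65, adjusted p = 0.00636). PPM1E, a phosphatase, rose by 1.59, ATP13A4, a cation transport ATPase, by 1.73, and DAPL1 by 1.33. All of these 6 remained DEPS without any single array, except ANKRD23 without pig 2.

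The cardiac transcription factors and the wall stress genes were not called. None of 10 factors and none of 7 wall stress and fetal genes passed, with medians of 0.14 and 0.00. NPPB, the gene of a natriuretic peptide that strained muscle secretes, had 10.31, 10.33 and 8.67 at 6 weeks, against 11.08, 12.02 and 3.98 at 4 weeks (log2 FC 0.74 ± 1.57, adjusted p = 0.842). NPPA, its atrial counterpart, had 9.13, 8.64 and 6.80, against 9.61, 11.51 and 3.45 (0.00 ± 1.61, adjusted p = 1). The core of pig 22 was thus near the CM mean of NPPB, 3.98, while the other cores were at 8.67 or above.

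Interferon-induced genes were the list with the lowest median. Of 21 tested genes 20 were lower at 6 weeks, 3 fell and 0 rose, and the median log2 FC was -0.94. The list averaged 5.37, 4.57 and 5.15 at 6 weeks, against 6.07, 6.42 and 5.78 at 4 weeks, with no overlap. In 8 of the 21 single genes the arrays did not overlap either. Over all named genes 10.3% had every 6-week array below the 4-week arrays, and 1.24% were called lower.

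IRF9, a transcription factor of the response to type I interferon, had 5.10, 4.65 and 4.84 at 6 weeks, against 5.64, 6.12 and 5.64 at 4 weeks (-0.94 ± 0.23, adjusted p = 0.0315). STAT2, which works with it on interferon-induced promoters, had 4.68, 4.66 and 4.98, against 5.52, 5.54 and 5.65 (-0.80 ± 0.21, adjusted p = 0.0413). In both genes the arrays of the stages did not overlap. The list's count was 1 without pig 2, 3 or 22 and 1 with centring on ribosomal protein genes.

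Other genes that interferon induces had larger differences with more spread, and did not pass. The chemokine CXCL9 had 4.03, 4.69 and 6.26 at 6 weeks, against 7.59, 5.93 and 7.68 at 4 weeks (-2.07 ± 0.61, adjusted p = 0.0638). The antiviral protein RSAD2 had a log2 FC of -1.90 (adjusted p = 0.166), and the ubiquitin-like modifier ISG15 one of -1.65 (adjusted p = 0.172). TNFSF10, a ligand of death receptors that interferon can induce, had the largest named fall, with 3.20, 3.35 and 3.50, against 5.93, 4.70 and 5.82 (-2.13 ± 0.54, adjusted p = 0.0346). It differed as much in RM (-2.09, adjusted p = 0.101) and lost its call without pig 2, 3, 18 or 22.

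Antigen presentation fell in 4 of 22 tested genes and rose in 0, with a median log2 FC of -0.46 and 21 genes lower. The share called lower over all named genes was 1.24%. PSMB8, a proteasome subunit that interferon induces, had 4.20, 4.06 and 4.55 at 6 weeks, against 5.01, 5.74 and 6.18 at 4 weeks (-1.37 ± 0.33, adjusted p = 0.0277). TAP1, which pumps peptides into the endoplasmic reticulum, had 5.54, 5.09 and 5.88, against 6.04, 6.76 and 6.41 (-0.90 ± 0.24, adjusted p = 0.0456). SLA-DMB, which loads peptides onto pig class II molecules, had 5.83, 6.02 and 6.50, against 6.61, 6.94 and 7.56 (-0.92 ± 0.22, adjusted p = 0.0277), and CD74, the class II invariant chain, fell by 0.86. The count was 0 without pig 2, without pig 3 and without pig 22, and 7 without pig 5.

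Macrophage genes were mostly lower without passing. Of 18 tested genes 16 were lower, 1 fell and 0 rose, and the median log2 FC was -0.68. The list averaged 6.36, 6.91 and 7.30 at 6 weeks, against 7.17, 7.24 and 8.30 at 4 weeks, with pig 5 inside the 4-week range and pig 22 highest of the 6; without pig 22 the median was -0.20. The count was 0 without pig 2 or 22 and 3 without pig 5. The 1 call was LGALS3, galectin 3, which macrophages and scar fibroblasts secrete, with 5.07, 5.49 and 5.34, against 6.51, 6.92 and 7.47 (-1.67 ± 0.34, adjusted p = 0.00982), and it was lost without pig 2 or 22. LYZ, the lysozyme of phagocytes, had a log2 FC of -2.26 (adjusted p = 0.135), whereas the macrophage receptors CSF1R and MRC1 had 0.01 and 0.00. CASP1, the protease that activates interleukin 1 beta, had 5.06, 4.68 and 5.48, against 5.88, 6.32 and 7.19 (-1.39 ± 0.29, adjusted p = 0.0131). Of 14 complement genes 13 were lower and 1 fell, and of 13 cytokines and chemokines 1 fell, CXCL16 (-1.12, adjusted p = 0.031). Both counts were 0 in some fits without a single array, and 1.24% of all named genes were called lower.

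**Figure D3:**
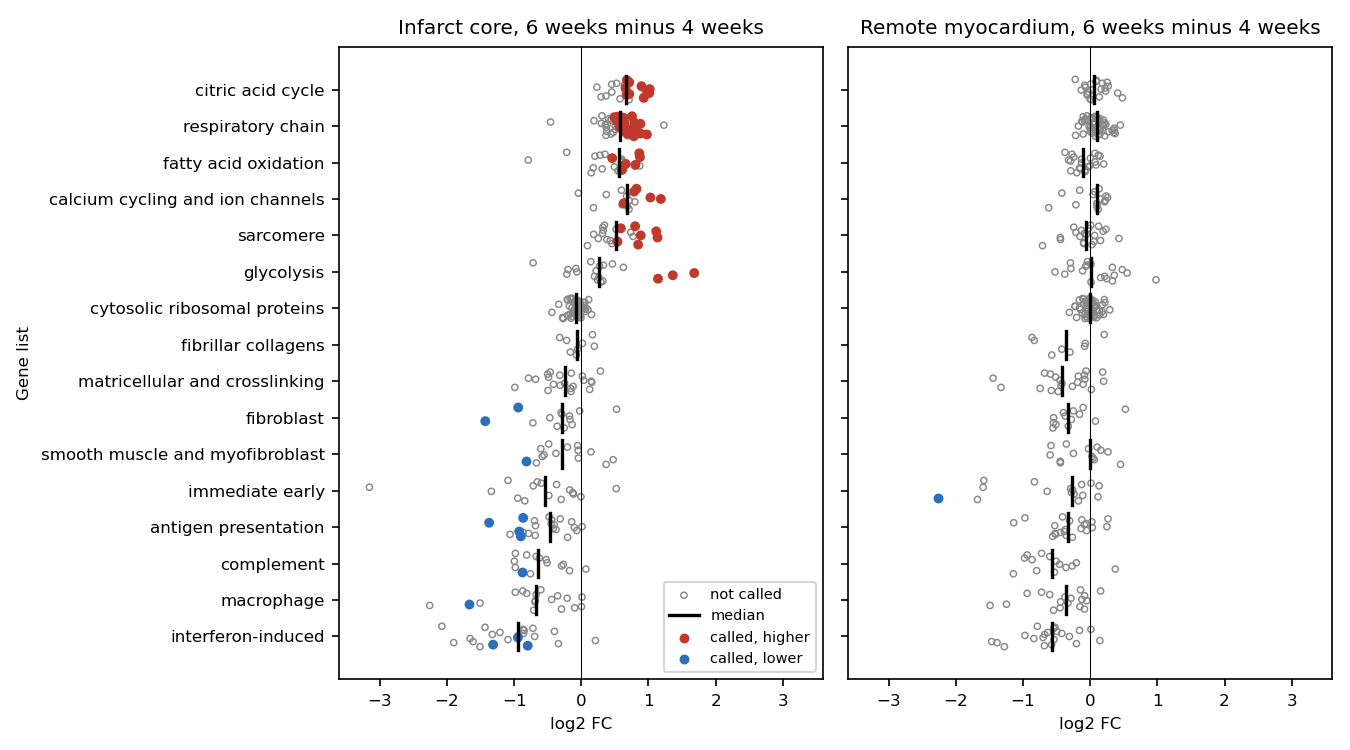
Log2 FC, 6 weeks minus 4 weeks, of every tested gene (points) of 16 lists in IC (left) and RM (right), with called genes filled, the list median as a bar, and rows spread for legibility. In IC the metabolic and muscle lists lie right of 0 with medians of 0.26 to 0.69 and the immune lists left of it down to -0.94; in RM the same lists have medians between -0.57 and 0.10.

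The lists of the scar's own genes had 0 calls between the stages. None of 8 fibrillar collagens, 12 other collagens, 21 matricellular and crosslinking genes, 8 small leucine-rich proteoglycans or 9 integrins passed, with medians of -0.06, -0.19, -0.25, -0.14 and -0.14. In the same order 5, 10, 15, 5 and 5 genes were lower at 6 weeks. Single members differed by more without passing. The lowest of the other collagens had -1.22, SPP1 of the matricellular list -0.99 and the proteoglycan KERA 2.16. COL3A1, the collagen of young scar, had 12.57, 12.76 and 12.79 at 6 weeks, against 12.69, 12.78 and 12.81 at 4 weeks (log2 FC -0.05 ± 0.24, adjusted p = 0.929). COL1A1, the collagen of mature scar, had 9.30, 9.68 and 10.10, against 10.03, 9.62 and 10.39 (-0.32 ± 0.31, adjusted p = 0.606). COL1A2 differed between its probe sets: the one with a mean of 12.22 at 6 weeks did not pass (log2 FC -0.22, adjusted p = 0.739), and a dim one fell (4.58, 5.37 and 5.89 at 6 weeks, against 6.20, 6.17 and 6.46 at 4 weeks, adjusted p = 0.0155).

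Cell type lists of the scar gave a few falls, where 1.24% of all named genes were called lower and 3.23% higher. Of 13 fibroblast genes 2 fell and 12 were lower, and the list averaged 7.78, 8.04 and 8.18 at 6 weeks, against 8.39, 8.45 and 8.25 at 4 weeks. S100A4, a calcium-binding protein of motile fibroblasts and leukocytes, had 3.78, 3.96 and 4.28, against 4.79, 5.67 and 5.83 (-1.43 ± 0.27, adjusted p = 0.00787), with a log2 FC of 0.08 in RM. The fibroblast count was 1 without pig 2, 3, 18 or 22 and 3 without pig 5. CDH11, a cadherin of mesenchymal cells, had 6.72, 7.11 and 7.90, against 8.27, 8.10 and 8.18 (-0.94 ± 0.23, adjusted p = 0.0291). Of 14 smooth muscle and myofibroblast genes 1 fell, SYNPO2 (-0.82), and of 9 metalloproteinases, their inhibitors and related proteases 1 fell, CTSK (-0.80), the collagen-cutting cathepsin K. The 12 endothelial genes had 1 rise, PROX1 (0.90), which heart muscle cells also express, and averaged 5.38 to 5.49, against 5.20 to 5.91. The smooth muscle, metalloproteinase and endothelial counts were each 0 in some fits without a single array. Lymphocyte (3 tested), adipocyte (5), nerve and Schwann (4), mesothelium and epicardium (3), red cell (1), and mast cell and granulocyte (1) lists had 0 calls, too few genes to describe those cells.

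The largest named falls held further genes of varied function. LAMB1, a laminin chain of basement membranes, had 3.02, 3.78 and 3.81 at 6 weeks, against 5.25, 5.35 and 5.23 at 4 weeks (-1.74 ± 0.27, adjusted p = 0.0018), while its other probe set had -0.55. CD59, which shields cells from complement, had 4.93, 5.13 and 4.99, against 6.37, 6.23 and 6.48 (-1.35 ± 0.23, adjusted p = 0.00298), while its other probe set had 0.07. ROCK1, a kinase of actin contraction, fell by 1.75, CLDND1 by 1.67, SCPEP1, a lysosomal carboxypeptidase, by 1.48, GPM6B, a membrane glycoprotein, by 1.43 and SSBP2, a DNA-binding cofactor, by 1.36. PPP1CA, a catalytic subunit of protein phosphatase 1, had 4.00, 4.19 and 4.19, against 5.31, 5.48 and 5.52 (-1.31 ± 0.15, adjusted p = 0.000115), its other probe set fell by 0.53, and it fell in RM as well (-1.14, adjusted p = 0.00076). These falls rested on dim probe sets. CLDND1 averaged 3.38 at 6 weeks and 5.06 at 4 weeks, and its brighter probe set had a log2 FC of -0.15; for ROCK1 the brighter one had -0.46 and for SCPEP1 -0.31. Among these, LAMB1, CD59, ROCK1, CLDND1, SCPEP1 and GPM6B had no other probe set that passed.

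Immediate early genes, which respond to stimuli within minutes, were lower in 15 of 16 cases with a median log2 FC of -0.54 and 0 calls in the list. FOS had 4.98, 5.27 and 5.49 at 6 weeks, against 8.67, 8.52 and 8.01 at 4 weeks, a difference of -3.15 that did not pass (SE 0.94, adjusted p = 0.0655). The SE of the fit is shared by 7 groups, and FOS had an SD of 2.69 in CM, against 0.26 in IC at 6 weeks and 0.34 at 4 weeks. EGR1 fell in its dimmest probe set (4.05, 3.92 and 4.29, against 5.31, 5.81 and 5.33, -1.40, adjusted p = 0.0307), which lies outside the list count, and its other probe sets had -1.18 and -0.71. TGFBR2, a receptor of transforming growth factor beta, was the 1 fall among 21 genes of that family (-0.58, adjusted p = 0.0455).

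Housekeeping lists had medians close to that of all genes. The 57 cytosolic ribosomal protein genes had a median log2 FC of -0.07, the 31 proteasome and ubiquitin genes 0.06, the 23 heat shock genes 0.12, the 20 genes of folding in the endoplasmic reticulum -0.15, and the 16 cell cycle genes 0.09, with 0 calls in each. In the same order 46, 12, 9, 18 and 5 genes were lower at 6 weeks, so the ribosomal and folding lists leaned to 1 side by small amounts. Of 19 apoptosis genes AIFM1 rose and CASP1 fell, and of 3 cartilage and bone genes SP7, a factor of bone-forming cells, rose by 0.72. There were 0 calls among 9 Wnt, 13 hypoxia, 14 glucocorticoid-responsive and 6 angiotensin and endothelin genes.

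Few of the genes the study itself brought forward were called between these stages. The study took them from comparisons of IC with CM at each stage, which is another question. It described several of the regulators as persistently up or down, and such a gene need not differ between 4 and 6 weeks. Of the 7 tested genes it measured by qRT-PCR 0 were called (median log2 FC -0.12), and of the 18 tested transcription regulators it listed for the core 1 rose, SATB1, a chromatin organizer, in 1 of its probe sets (6.52, 6.00 and 5.42 at 6 weeks, against 4.87, 5.24 and 4.68 at 4 weeks, 1.05, adjusted p = 0.0147). PPARGC1A, also among these regulators, had the largest difference of that list, 1.53, which did not pass, while its other probe set rose, as given above. ROCK1, which the study described as changing with time in the core, had -0.46 in the list without passing. A dimmer ROCK1 probe set fell, as given above. The study chose these genes on the same samples.

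The remote myocardium of the same pigs was fitted with the core, to see whether the change was shared by the heart. In RM, 77 probe sets (0.632%) were DEPS, 14 higher (0.115%) and 63 lower (0.517%) at 6 weeks. Both regions called 45 probe sets, all in the same direction (9 higher, 36 lower), which is 9.51% of the IC list and 58.4% of the RM list. The RM count was 26 without pig 20, 37 without pig 22, 38 without pig 3, 42 without pig 5 and 116 without pig 18. Of the rises of the core 3.54% were also called in RM, where their median log2 FC was 0.20, and of the falls 16.4%, where it was -0.57.

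For the metabolic and muscle lists the RM medians were near 0: 0.06 for the citric acid cycle, 0.09 for the respiratory chain, -0.10 for fatty acid oxidation, -0.06 for the sarcomere and 0.10 for calcium cycling, with 0 calls. For the immune lists they were -0.57 (interferon-induced), -0.33 (antigen presentation), -0.35 (macrophage) and -0.57 (complement), also with 0 calls. Pig 20 had the highest RM value at 4 weeks in every tested interferon-induced gene except CXCL9, which was highest in pig 18. RSAD2 had 5.52, 8.72 and 6.01 in RM of pigs 18, 20 and 22, and ISG15 had 6.45, 9.06 and 6.23. The RM median of that list thus leans on 1 animal. ANK1 had a log2 FC of 0.09 in RM, ASB11 0.01, and PFKM 0.55.

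The difference of the changes, IC minus RM within each pig, was tested in 9 pigs. It called 0 of 12180 probe sets (0%), with a lowest adjusted p of 0.351 in limma, and 802 (6.58%) had an unadjusted p under 0.05. Among the rises of the core 159 (62.6%) had such a p and among the falls 40 (18.3%), a description, since the same IC arrays chose them. A change in the core that differs from that in the remote wall was therefore not shown for any single gene. In simulated data this test called 12 of 100 probe sets changed by 1 on the log2 scale and 76 of 100 changed by 2. The comparison of the IC stages called 76 and 95. The simulated arrays of a pig were drawn independently. The 0 calls therefore do not show that the regions changed alike.

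**Figure D4:**
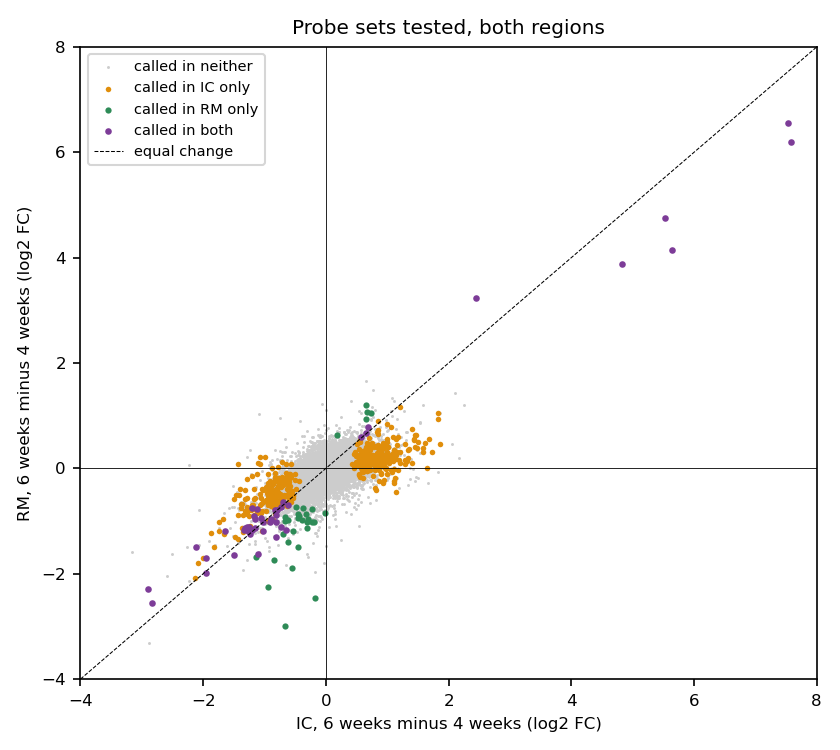
Log2 FC at 6 weeks minus 4 weeks in RM (vertical axis) against IC (horizontal axis) for the 12180 probe sets tested, coloured by where they were called, with the line of equal change dashed. The rises of IC had a median of 0.20 in RM and the falls one of -0.57, and 5 probe sets at a log2 FC of 3 or more in both regions stand apart.

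CLOCK, a core transcription factor of the daily rhythm, and LPHN2, an adhesion receptor, head the list and behaved unlike the rest. The CLOCK probe set had 6.12, 6.26 and 6.96 in IC at 6 weeks, against 1.00, 0.62 and 0.77 at 4 weeks (log2 FC 5.65, adjusted p = 0.000115), and in RM 4.98, 5.35 and 5.09, against 1.01, 1.14 and 0.84 (4.14, adjusted p = 0.00111). It was also at 1.62 in the CM array of pig 30, but at 4.93 and 5.08 in pigs 31 and 33 and at 4.97 or above in all 6 arrays at 1 week. LPHN2 and 3 probe sets without a gene name had the same pattern, low in both regions of pigs 18, 20 and 22 and in CM pig 30 and high in all other arrays. In CLOCK the high level also differed between regions, since the 6-week arrays lay at 6.12 to 6.96 in IC and at 4.98 to 5.35 in RM. Whether the low level belongs to these 4 animals or to these 7 arrays, which also come first in the order of deposit, cannot be told apart. Both names are matches to human genes by the authors, and the other 7 tested genes of the circadian clock list had 0 calls.

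Control probe sets on the arrays differed between the stages too. Of 86 tested control probe sets 18 were called in IC, 15 of them lower at 6 weeks. The spiked bacterial transcripts thr and dap, added to every sample before labelling, read lower at their 5' end, by 2.84 and 2.01 on the log2 scale in IC, and in RM the thr difference was -2.55. The 3' minus 5' difference of thr was 4.02 to 5.22 in IC at 6 weeks and 1.50 to 2.41 at 4 weeks, and that of dap 3.35 to 5.10 and 1.41 to 1.82. For actin it was 4.54 to 5.26 and 2.83 to 3.33, and for EF1A 1.66 to 2.45 and 0.69 to 1.02. The lys and phe spikes showed differences of 0.00 to 0.17 and 0.31 to 1.20 at 6 weeks, against -0.27 to -0.07 and 0.74 to 1.05 at 4 weeks.

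These controls moved with the stage in both regions. With the mean 3' minus 5' difference of thr and dap as a covariate, 0 probe sets were called in IC (lowest adjusted p 0.293, 1101 at an unadjusted p under 0.05), and the median SE grew to 0.491 from 0.193. Under it 247 of the 254 rises stayed above 0 with a median log2 FC of 0.64, and 194 of the 219 falls stayed below 0 with a median of -0.66. The median of the citric acid cycle became 0.28, of the respiratory chain 0.24 and of the interferon-induced list -1.59. TNFSF10 and ROCK1 turned to 0.31 and 0.06. All 6 arrays at 6 weeks exceeded all 6 at 4 weeks in this difference, so what moved it and the stage cannot be told apart. The covariate was chosen after seeing the data.

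**Figure D5:**
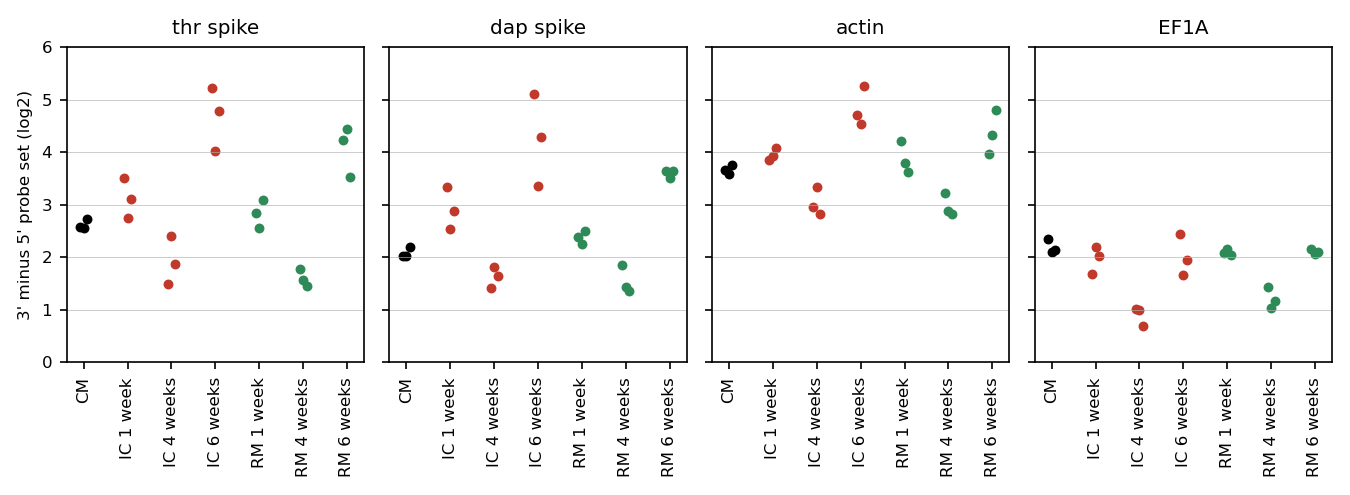
Difference between the 3' and the 5' probe set (log2) of 2 spiked transcripts and of the pig transcripts of actin and EF1A, in each of the 21 arrays by group. For thr, dap and actin every array at 6 weeks lies above every array at 4 weeks in IC and in RM, at 3.35 or above, against 3.33 or below.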

How the data were processed

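RNA of 21 myocardial samples was labelled with a 3' IVT kit and read on Affymetrix porcine arrays. RMA by the authors over all 21 arrays gave the deposited log2 values of 24123 probe sets; the labels name RMA and limma. Means of 7 groups were estimated with limma 3.58.1 in R 4.3.3 (14 residual and 3.98 prior degrees of freedom) for 12180 probe sets, with Benjamini-Hochberg adjustment over all of them. IC minus RM per pig was fitted over 9 pigs. Pigs pair IC and RM arrays by their number in the labels, with residual correlations of 0.0714 to 0.491; the comparison of stages is between different pigs. With 3 arrays a group, an exact permutation test cannot go below p = 0.1, so precision is set by how few arrays there are. The titles number the 6-week samples apart from the rest; what else that numbering marks is not given in the sources used here.

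Genes were named by the platform's symbol (6285 probe sets) or else by the authors' match to a human gene (1070); 4825 had none. Of 1358 with both, 256 (18.9%) differed. Lists use the probe set with the highest mean. Named are the 15 largest rises and 15 largest falls among named DEPS with non-overlapping arrays and a mean of at least 5 in the higher group, up to 4 members of each list, and control probe sets (the rule's 10 and 10 genes of the region by time difference do not exist, since 0 were called); other list members and probe sets were added after their values were seen. Members and lists were chosen with earlier results of these data known. Some genes that the rule picks are not reported here. Fits were tested on simulated data. Alternatives were other filters, scalings, spread estimates, thresholds, a replicate block and leaving out each array; the spike covariate was chosen after seeing the data. Figures used matplotlib.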

Additional observations from a re-analysis of the deposited data

How the results depend on the processing

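For IC the 473 DEPS (254 higher, 219 lower) became 135 (77 and 58) at an adjusted p under 0.01, 157 (70 and 87) at an absolute log2 FC of at least 1, 20 (8 and 12) with the 6 IC arrays alone, whose fit has fewer samples to estimate the spread from, and 0 (0 and 0) with the spike covariate. The falls numbered 364 without a filter and 112 after centring on ribosomal protein genes. Leaving out single arrays gave 154 to 798 DEPS (67 to 456 higher, 87 to 342 lower). For RM the 77 (14 higher, 63 lower) became 195 (61 and 134) without a filter, 38 (9 and 29) with a filter above 5 in at least 3 arrays, 379 (72 and 307) with array weights, 32 (5 and 27) at 0.01, 46 (9 and 37) at a log2 FC of 1, 23 (7 and 16) with the 6 RM arrays alone and 0 with the covariate; with median centring it split into 23 higher and 36 lower, and single arrays left out gave 26 to 116 (3 to 16 higher, 23 to 100 lower). The region by time difference called 1 probe set without a filter and 0 in the other settings, leaving out single pigs included. Where no fewer samples or genes explain a change, the cause was not tested. With the pig as a replicate block 462 were called in IC (247 higher, 215 lower) and 77 in RM (15 higher, 62 lower), and without the block the region by time difference called 0; it moved no count by over 1.5 times. Among named probe sets called in the main fit or in the alternative, the log2 FC changed sign in 2. These were TNFSF10 (0.31) and ROCK1 (0.06), both with the covariate. Sign changes of probe sets called in neither fit were not counted.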

Other observations

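Further lists of textbook members were drawn up after the calls were seen, so their counts are a description. Of 38 tested lysosomal protein genes 5 fell and 0 rose (median log2 FC -0.30): SMPDL3A, LAPTM5, PLD3, CTSK and NPC2, of which LAPTM5 had 5.78, 6.27 and 7.02 in IC at 6 weeks, against 7.49, 6.99 and 8.91 at 4 weeks. Of 38 actin cytoskeleton genes 1 fell, CAPG, an actin-capping protein of macrophages, with 5.29, 5.74 and 6.37, against 6.86, 7.02 and 6.87 (-1.11, limma adjusted p = 0.00961) and a log2 FC of 0.11 in RM.

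Of 12 genes of glycogen metabolism 4 rose (median 0.46), among them PYGM, PYGB and PPP1R3B, which targets a phosphatase to glycogen. Of 15 genes of phosphate transfer and nucleotide exchange 6 rose (median 0.52), among them the adenylate kinase AK1 (0.95), the ATP carrier SLC25A4 (0.72) and the pore VDAC3 (0.69). Of 47 genes of the mitochondrial ribosome, protein import and cristae 8 rose and 43 were higher (median 0.32). CHCHD10, a protein of the cristae, had 10.37, 10.49 and 10.01, against 9.71, 9.45 and 8.82 (0.96, adjusted p = 0.00768).

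GJA1, which encodes connexin 43, the channel between heart muscle cells, had probe sets that disagreed. The bright one had 10.41, 9.79 and 9.77 in IC at 6 weeks, against 9.67, 9.88 and 9.31 at 4 weeks (0.37, adjusted p = 0.277), and a dim one had 4.62, 4.34 and 4.39, against 5.43, 6.15 and 5.58 (-1.27, adjusted p = 0.00961), with -1.19 in RM (adjusted p = 0.0346). The cause was not tested.

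The control probe set of 5S ribosomal RNA averaged 5.25 in IC at 6 weeks and 2.81 at 4 weeks, and 5.53 in RM at 6 weeks and 2.30 at 4 weeks.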
